A study of Mus musculus with 8 samples.

Results

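Transcripts of the mitochondrial genome were measured together, as the share of a cell's UMIs (unique molecular identifiers, each of which marks 1 captured transcript) that map to mitochondrial genes. The share was read for each cell of the deposited table of single cells from mouse cortex, and the 60940 cells of 60989 that carry 1 of 17 named cell types were described. No value of a single mitochondrial gene was analysed here, so results are for the sum. Motor and somatosensory cortex was taken from C57BL/6 mice of wild-type genotype at postnatal day 1 (P1), 7 (P7) and 21 (P21). No mutation, transgene or treatment was compared, and age was the factor that differed between the groups. Each library was a pool of animals of both sexes, dissociated with papain and sorted as live cells with an intact membrane and stained DNA. There were 3 libraries at P1 (numbers 3, 4 and 5), 2 at P7 (numbers 1 and 2) and 3 at P21 (numbers 6, 7 and 8). Both P7 libraries were collected on 1 day per the labels, and no day is shared by 2 ages, so day and age cannot be told apart. Papain was used at a higher concentration at P21, and that cannot be told apart from age either.

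The mitochondrial chromosome of the mouse holds 37 genes in the RefSeq annotation of GRCm38. Of these, 13 encode proteins, all of them subunits of the machinery of oxidative phosphorylation. They are 7 ND genes of complex I, which takes electrons from NADH, Cytb of complex III, 3 COX genes of complex IV, where oxygen is reduced, and 2 ATP genes of the ATP synthase. The other 22 tRNA and 2 rRNA genes serve translation inside the organelle. The remaining subunits of these complexes are encoded in the nucleus, and most of the messages of the mitochondrial genome carry a poly(A) tail, so that capture by oligo(dT) retains them. A cell with many mitochondria or with active mitochondrial transcription holds more of these transcripts. A cell whose cytoplasm has leaked can also show a high share, which is why the share is widely used as a filter on damaged cells. The sources used here do not say which of the genes the authors summed.

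The share ranged over all cells from 0.105% to 9.996%, with a median of 4.47%, and 0 cells had no mitochondrial UMI. Cells at or above 10% had been removed by the authors, and 0 remained. Multiplied by the UMIs of the cell, the share gave a number within 0.1 of a whole count in 99.3% of cells, so that a count of mitochondrial UMIs could be set for each cell, from 2 to 1136. They summed to 13124638 UMIs, and to 313515 to 3141076 per library, among 7751963 to 58553300 UMIs of all genes. Libraries held 2240 to 11310 cells, and pairs of libraries shared 8 to 170 cell barcodes, at most 1.83% of the smaller library. The table holds no marker genes to check the types against, and the names are those of the authors. All 7496 layer IV neurons lie in clusters that the authors' cluster names call CPN, so the name layer IV comes from the column of types alone. The authors also regressed the mitochondrial percentage out of the expression values before they clustered the cells. The value of a type in a library was the median over its cells, where there were at least 20, and all spreads between libraries are SDs of these medians.

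At P1, the share was highest in layer IV neurons, which receive the input of the thalamus, and lowest in astrocytes and in oligodendrocyte precursor cells (OPC). Layer IV neurons had medians of 4.68%, 5.07% and 4.95% in libraries 3, 4 and 5, and held rank 1 of 8 types in each of the 3. The subcerebral projection neurons (SCPN), the output cells of layer V, had 4.12%, 4.81% and 3.87%, and the Sst interneurons, which target dendrites, had 4.11%, 4.67% and 3.92%. Both types held rank 2 or 3 in each library. Callosal projection neurons (CPN), which link the hemispheres, held rank 4 in each library, at 3.97%, 4.32% and 3.58%. The lower ranks went to corticothalamic projection neurons (CThPN, 3.35% to 3.95%), CGE interneurons (3.37% to 3.66%), OPC (3.35% to 3.64%) and astrocytes (3.0% to 3.37%). The order of types was much alike in the 3 libraries (Kendall's W = 0.947, where 1 is an identical order), although library 4 lay above the others in 7 of 8 types.

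At P7 the MGE interneurons stood first of 13 types in both libraries, with medians of 6.45% and 6.44%. CPN followed at 5.85% and 5.75%, then layer IV neurons at 5.84% and 5.61%, Sst interneurons at 5.498% and 5.25%, and SCPN at 5.34% and 5.07%. These 4 types kept the same order in both libraries, though the ranges of CPN and layer IV neurons overlapped, as did those of Sst interneurons and SCPN. Npy interneurons had 4.95% and 4.81%. The other types lay between 4.02% and 4.72% without a steady order. Vip interneurons held ranks 12 and 13 in libraries 1 and 2, committed oligodendrocyte precursors (COP) ranks 13 and 9, and CThPN ranks 8 and 12. Astrocytes held rank 7 in both libraries, at 4.67% and 4.72%. Kendall's W over the 13 types was 0.942 with 2 libraries.

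At P21 the types spread most widely, with astrocytes first and microglia last of 9 types in each of 3 libraries. Astrocytes, which supply neurons with metabolites and clear transmitter, had medians of 6.82%, 7.65% and 7.56% in libraries 6, 7 and 8. Microglia, the immune cells of the brain, had 1.71%, 1.66% and 1.72%, less than the lowest median of any other type and library at any age (2.81%). Between them lay pericytes of the vessel wall (4.67%, 4.99% and 5.201%) and the stages of the oligodendrocyte lineage. No test between types can pass with the P21 libraries alone, since an exact sign-flip test over 3 libraries cannot go below p = 0.25. At matched depth, in cells with 2000 to 4000 UMIs, microglia had 1.75%, 1.68% and 1.71%, and astrocytes 7.06%, 7.44% and 7.68%. The order of the 9 types gave a Kendall's W of 0.919.

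**Figure D1:**
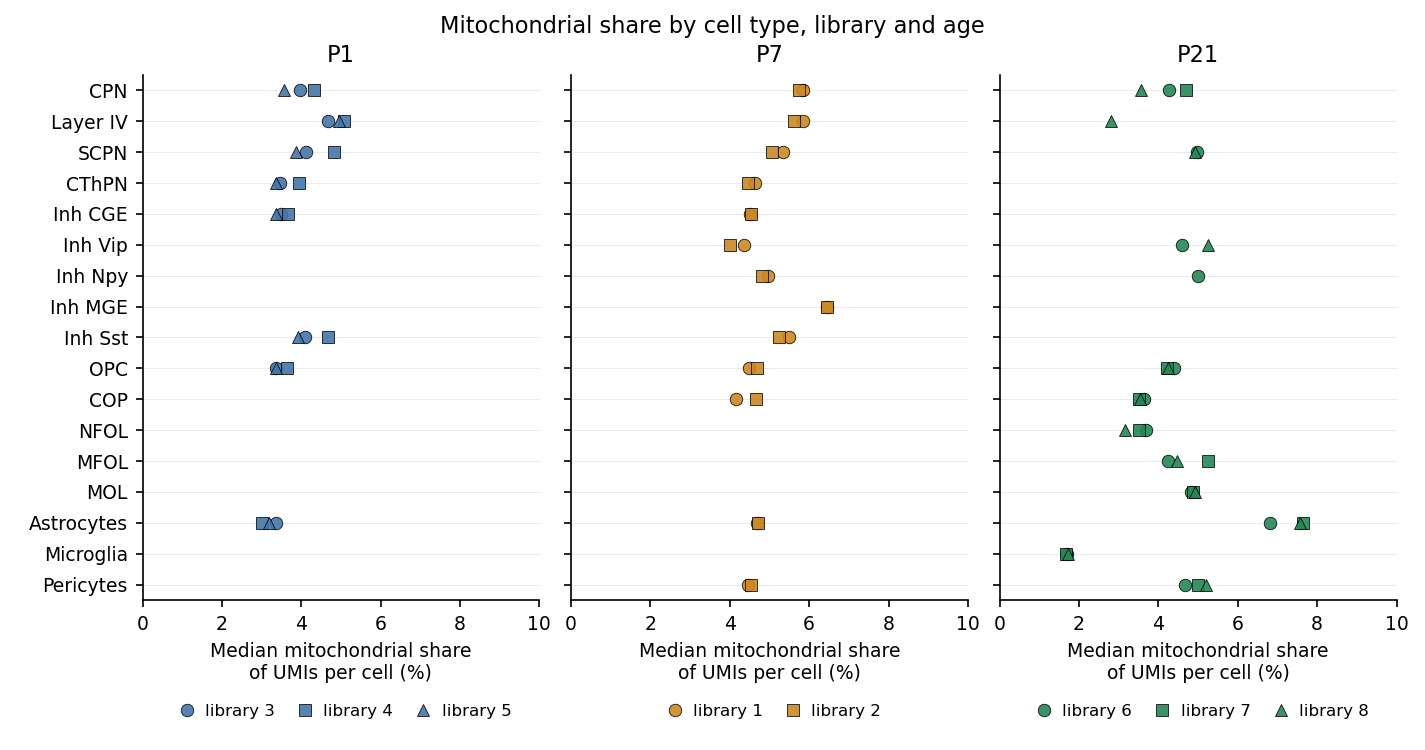
Median mitochondrial share of UMIs per cell in percent (x axis) of 17 cell types (y axis) at P1, P7 and P21, with 1 symbol per library that holds at least 20 cells of the type. Astrocytes sit near 3% at P1 and near 7% at P21, while microglia at P21 sit below 2%.

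The oligodendrocyte lineage, whose cells mature from OPC through COP, newly formed (NFOL) and myelin-forming (MFOL) to mature oligodendrocytes (MOL), did not follow a single direction at P21. OPC had 4.40%, 4.23% and 4.24%, COP 3.63%, 3.52% and 3.53%, and NFOL 3.70%, 3.50% and 3.16%. MFOL had 4.24%, 5.24% and 4.48%, and MOL 4.83%, 4.87% and 4.92%. Over all depths, COP and NFOL lay below OPC in 3 of 3 libraries, and MOL above OPC in 3 of 3. COP and NFOL overlapped, and so did MFOL and MOL, which held 40 to 82 and 47 to 82 cells per library. In cells with 2000 to 4000 UMIs, COP stayed below OPC in 3 of 3 libraries. COP had 3.79%, 3.65% and 3.73% there, against 4.07%, 4.24% and 3.84% in OPC. NFOL had enough cells at this depth in library 6 alone, where their 4.19% lay above OPC. MFOL and MOL had too few cells at this depth. In counts per cell the order was another. Mitochondrial UMIs stepped up along the lineage in each library, with 85 to 91 in OPC, 125 to 139 in COP, 182 to 272 in NFOL, 303 to 377 in MFOL and 333 to 416 in MOL. The mean UMIs of other genes also grew along these stages, from 1818 ± 68.2 in OPC to 3650 ± 313 in COP, 6680 ± 1734 in NFOL, 7412 ± 635 in MFOL and 7498 ± 475 in MOL (SD over 3 libraries each).

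At P21 the neuron types held few cells, and the share differed by type. CPN had 4.27%, 4.70% and 3.56% in libraries 6, 7 and 8 (135, 31 and 84 cells), and SCPN had 4.97% and 4.91% in libraries 6 and 8 (23 cells each). Layer IV neurons, first at P1, had 2.81% in the single library with enough cells (178 cells of library 8), and 2.77% and 3.24% in the 13 and 10 cells of libraries 6 and 7. These cells of library 8 had a median of 8864 UMIs of other genes, the highest of any type and library with at least 20 cells, against 3063 ± 131 (SD, n = 2) in the P7 libraries, and their 253 mitochondrial UMIs compared with 185 in each P7 library. Vip interneurons, which act on other interneurons, had 4.60% and 5.25% in libraries 6 and 8 against 4.35% and 4.02% at P7. Npy interneurons had 4.996% in library 6, the one P21 library with 20 of their cells.

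Age was compared within the 4 types that had values in at least 2 libraries of each age, by an exact permutation test of the spread between ages over all assignments of libraries. After Benjamini-Hochberg adjustment 3 of 4 types differed by age at 0.05 (75.0% of those tested): astrocytes, OPC and CPN. Astrocytes rose at each step, with means of 3.19% ± 0.185 over the 3 libraries of P1, 4.70% ± 0.0325 over the 2 of P7 and 7.34% ± 0.456 over the 3 of P21 (± SD). No library of one age overlapped another (adjusted p = 0.00714, exact permutation test). Library 8 held 542 of the 627 astrocytes of P21 and libraries 6 and 7 held 50 and 35, and each counted once.

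OPC were lowest at P1, with a mean of 3.45% ± 0.166 against 4.58% ± 0.141 in the P7 libraries and 4.29% ± 0.0976 in those of P21 (± SD over 3, 2 and 3 libraries, adjusted p = 0.00714, exact permutation test). CPN were highest at P7, at 5.80% ± 0.0712 (SD, n = 2). Their P1 and P21 libraries overlapped, with means of 3.96% ± 0.374 and 4.18% ± 0.576 (SD over 3 libraries each). The call for CPN was narrow (adjusted p = 0.0476, exact permutation test). It was lost with the P7 libraries counted as 1 (adjusted p = 0.152, exact permutation test) and without any one of the libraries except 8, with adjusted p from 0.0635 to 0.152. It was also lost with the share of summed UMIs, the logit, a minimum of 50 cells and at least 1500 genes, with adjusted p from 0.0536 to 0.081 in the exact permutation test. SCPN, with means of 4.27% ± 0.490, 5.203% ± 0.195 and 4.94% ± 0.0405 over 3, 2 and 2 libraries, missed the threshold in the exact permutation test over 210 assignments (adjusted p = 0.105).

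Between P1 and P7 the medians could be set side by side in 8 types, and in 8 of 8 every P7 library lay above every P1 library (100% of the types compared). The differences of the means were 1.84 points in CPN, 1.51 in astrocytes, 1.14 in Sst interneurons, 1.12 in OPC, 1.015 in CGE interneurons, 0.96 in CThPN, 0.94 in SCPN and 0.83 in layer IV neurons. Interneurons were named more finely at P7, where 1521 MGE, 501 Npy and 252 Vip cells were set apart, and none of these names was used at P1. The Sst and CGE interneurons of the 2 ages may therefore not be the same populations. The 8 types come from the same 5 libraries, so they do not repeat the comparison 8 times, and 3 libraries against 2 cannot go below p = 0.1 in an exact permutation test.

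From P7 to P21 the direction depended on the type. Of 7 types with at least 2 libraries at both ages, 3 lay higher at P21 without overlap (42.9%): astrocytes by 2.64 points, Vip interneurons by 0.74 and pericytes by 0.45. The other 4 lay lower without overlap (57.1%): CPN fell by 1.62 points, COP by 0.85, OPC by 0.29 and SCPN by 0.26. In CPN with 2000 to 4000 UMIs, the single P21 library with enough cells had 5.34% (44 cells of library 6) against 5.91% and 5.66% at P7. In pericytes of this depth, the single P7 library with enough cells had 4.998% (25 cells of library 1). The P21 libraries had 4.81%, 5.16% and 5.43%, so pericytes of the 2 ages overlapped there. Astrocytes stayed apart, at up to 4.37% in P7 and down to 7.06% in P21. OPC and COP still lay lower at P21. Vip interneurons and SCPN had too few P21 cells at this depth. Across the whole span, 3 of 4 types lay higher at P21 than at P1 (75.0%), namely astrocytes, OPC and SCPN. In cells with 2000 to 4000 UMIs the P1 and P21 libraries of OPC overlapped, at up to 3.86% in P1 and down to 3.84% in P21. These pairwise comparisons carry no test of their own, for the same reason.

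With equal weight for the 3 types found in all 8 libraries (CPN, OPC and astrocytes), the P1 libraries averaged 3.53% ± 0.142 (SD, n = 3), the P7 libraries 5.02% ± 0.0342 (SD, n = 2) and the P21 libraries 5.27% ± 0.222 (SD, n = 3). Ages differed (p = 0.0107, exact permutation test over 560 assignments). Equal weight fixes the mix of the 3 types and not that of the clusters within them. The P21 to P1 difference of 1.73 points depended on the types that entered, and was 0.29 for CPN and OPC alone in cells with at least 1500 genes and 2.32 for OPC and astrocytes alone in cells with 2000 to 4000 UMIs. The P7 and P21 values lay close together here, with astrocytes higher and CPN lower at P21.

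**Figure D2:**
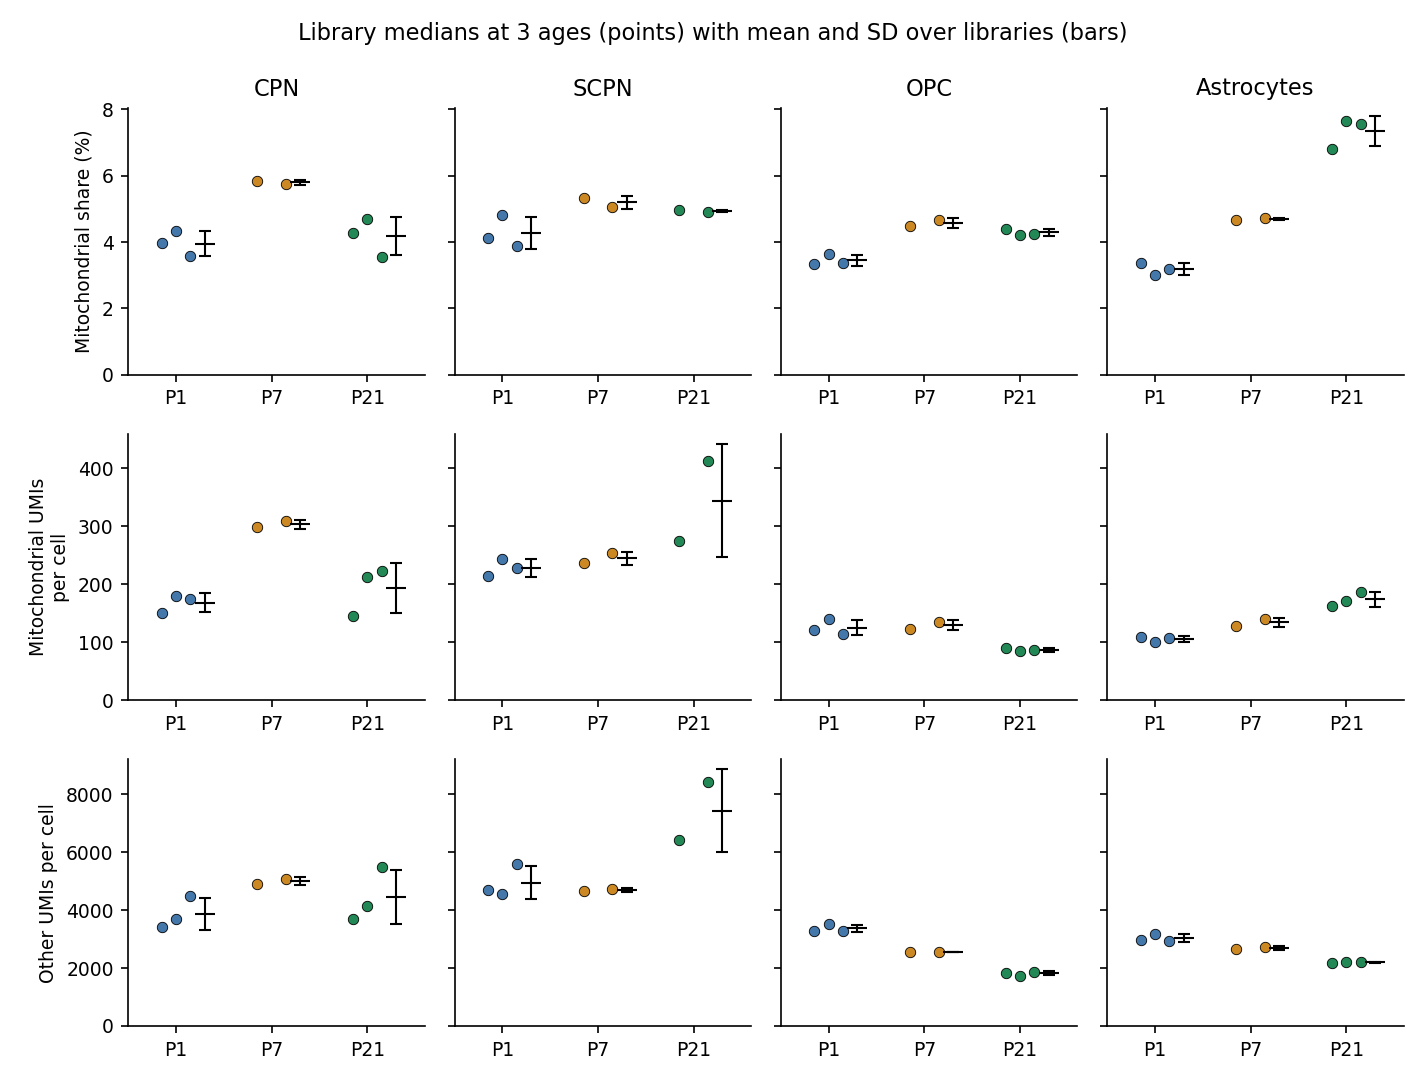
Library medians (points) of the mitochondrial share in percent, of mitochondrial UMIs per cell and of UMIs of other genes per cell (rows, y axes) for CPN, SCPN, OPC and astrocytes at 3 ages (x axis), with the mean and SD over libraries as bars. Astrocytes gain mitochondrial UMIs with age while their other UMIs decline, and OPC lose other UMIs from 3369 to 1818.

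A share can move through its numerator or its denominator, so mitochondrial UMIs and the UMIs of all other genes were tested apart. All libraries had been thinned by the authors to a like coverage per cell, which leaves the counts on a relative scale. The thinning was set per library and not per type, so the mix of types in a library may bear on the counts of each type. That was not tested. Of 8 such tests, 6 passed (75.0%). In astrocytes both changed, in opposite directions: mitochondrial UMIs rose from 106 ± 5.29 to 134 ± 8.13 and 174 ± 12.6 per cell (± SD over 3, 2 and 3 libraries), while other UMIs fell from 3037 ± 137 to 2693 ± 62.6 and 2195 ± 12.6. Both had an adjusted p of 0.00952 in the exact permutation test. On the log2 scale the P21 to P1 difference in astrocytes was 0.72 for mitochondrial and -0.47 for other UMIs.

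In OPC the higher share at P21 than at P1 came with fewer UMIs of both kinds. From P1 to P21, mitochondrial UMIs were 126 ± 13.0, 129 ± 8.84 and 87.3 ± 3.21 (adjusted p = 0.0381, exact permutation test), and other UMIs 3369 ± 127, 2558 ± 10.3 and 1818 ± 68.2 (adjusted p = 0.00952, exact permutation test). In CPN, mitochondrial UMIs were 168 ± 16.1, 304 ± 7.78 and 194 ± 42.4 and differed by age (adjusted p = 0.0286, exact permutation test). Other UMIs of CPN, at 3864 ± 546, 4996 ± 137 and 4443 ± 933, missed the threshold of the exact permutation test (adjusted p = 0.307). In SCPN, mitochondrial UMIs were 229 ± 15.3, 245 ± 11.3 and 344 ± 97.6, with P21 libraries at 275 and 413 (adjusted p = 0.0381, exact permutation test), and other UMIs missed it (adjusted p = 0.098). The call for the mitochondrial UMIs of SCPN was lost in 8 of 8 runs with a library left out, where the P21 to P1 difference ran from 46.5 without library 8 to 184.5 without library 6. The calls for the mitochondrial UMIs of CPN and OPC were each lost in 7 of 8 such runs, and those of astrocytes, for both kinds of UMIs, and of OPC, for other UMIs, in 1 of 8 (library 1). Without library 1 of P7, 0 of the 8 tests passed after adjustment and 4 passed at an unadjusted p under 0.05, with a lowest adjusted p of 0.0571 (exact permutation test). Without any other one of the libraries 3 or 4 passed.

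Among the types without a test at 3 ages, Sst interneurons had 168 ± 3.79 mitochondrial UMIs per cell (SD, n = 3) in the P1 and 321 ± 0.707 (SD, n = 2) in the P7 libraries, a log2 difference of 0.93, with other UMIs at 3508 ± 456 and 5671 ± 135. With MGE, Npy and Vip interneurons named at P7 and not at P1, the cells called Sst may not be the same populations at both ages. CThPN had 138 ± 10.0 and 199 ± 1.41. Layer IV neurons had 198 ± 34.6 and 185 in each P7 library, with other UMIs at 3653 ± 582 and 3063 ± 131. Their libraries overlapped in both measures, library 3 of P1 having 160 mitochondrial and 3032 other UMIs. In microglia at P21, 40.7 ± 1.53 mitochondrial UMIs (SD, n = 3) stood beside 2231 ± 13.6 other UMIs, nearly the same number of other UMIs as in the astrocytes of these libraries, which had 174 mitochondrial UMIs.

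**Figure D3:**
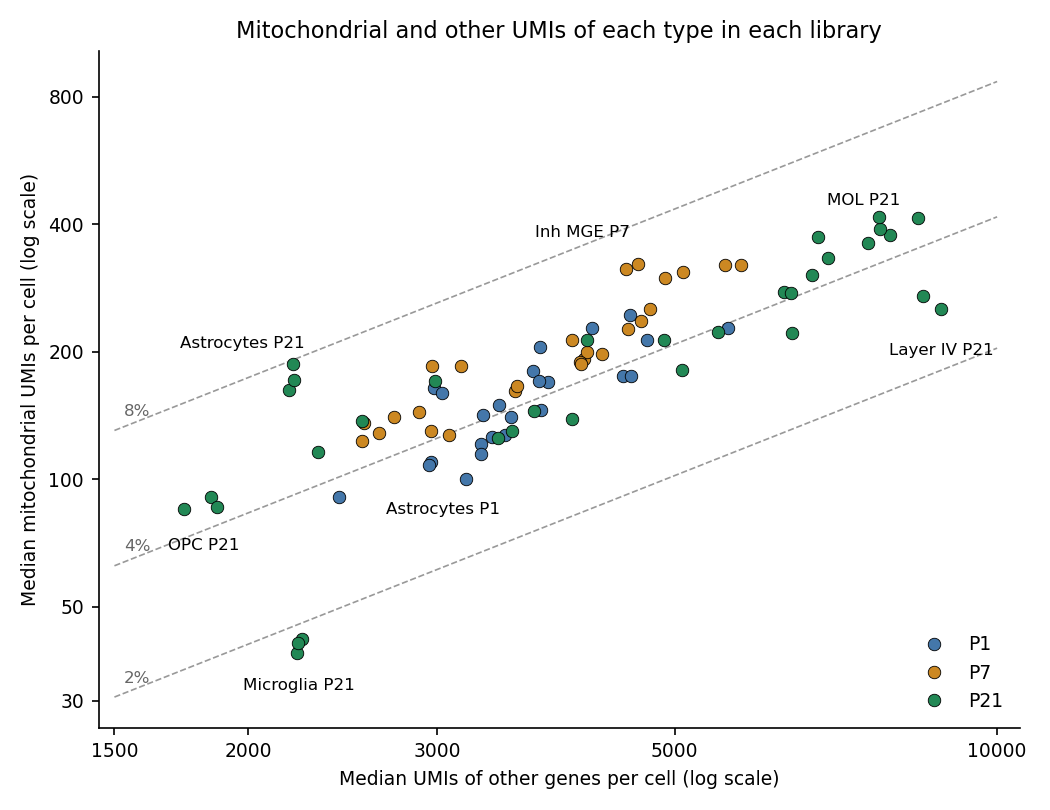
Median mitochondrial UMIs per cell (y axis, log scale) against median UMIs of other genes per cell (x axis, log scale), with 1 point for each type and library of at least 20 cells, coloured by age. Dashed lines mark shares of 2%, 4% and 8%, and P21 astrocytes and microglia stand far apart at the same number of other UMIs.

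Types were also compared within libraries, in points of the share. Over all 8 libraries 0 of the 3 pairs of CPN, OPC and astrocytes passed the exact sign-flip test, adjusted or not. OPC minus CPN averaged -0.45 points ± 0.654 (SD, n = 8), negative in 6 of 8 libraries (adjusted p = 0.246, exact sign-flip permutation test). Astrocytes minus CPN averaged 0.62 points ± 2.16 (positive in 3 of 8, adjusted p = 0.430, exact permutation), and astrocytes minus OPC averaged 1.08 points ± 1.68 (positive in 6 of 8, adjusted p = 0.246, exact permutation). The signs were not the same at all ages, and the differences were therefore compared between ages.

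All 3 differences between types differed by age. Astrocytes minus CPN was -0.60, -1.32 and -0.38 points in the P1 libraries, -1.176 and -1.03 points in the P7 libraries, and 2.54, 2.95 and 4.0 points in the P21 libraries (adjusted p = 0.0214, exact permutation test). Astrocytes minus OPC went from -0.26 ± 0.341 to 0.12 ± 0.109 and 3.05 ± 0.554 points (± SD over 3, 2 and 3 libraries), with the same adjusted p in the exact permutation test. OPC minus CPN went from -0.50 ± 0.252 to -1.22 ± 0.213 and 0.11 ± 0.576 points (adjusted p = 0.025, exact permutation test), with P21 libraries on both sides of 0 at 0.13, -0.47 and 0.68. With the P7 libraries counted as 1, the adjusted p rose to 0.0643 for both differences of astrocytes and to 0.114 for OPC minus CPN in the exact permutation test, with the P1 and P21 values as they were. On the logit scale it was 0.0536 for astrocytes minus CPN and 0.075 for OPC minus CPN (exact permutation test).

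Within types, clusters of the authors differed in share, in some types by more than the ages did. The microglia fell into a large cluster 1, with 1657 cells and a share of 1.605% ± 0.0250 (SD, n = 3), and a smaller cluster 9, with 236 cells and 3.97% ± 0.335 (SD, n = 3). Cluster 9 was higher in 3 of 3 libraries, by 2.07 to 2.69 points, with 98.3 mitochondrial UMIs per cell against 38.2 at 2374 and 2262 UMIs in all. Pericytes at P21 fell into cluster 3, with 5.25% ± 0.453 (SD, n = 3), and cluster 8, with 3.34% ± 0.0687 (SD, n = 3), again in the same order in 3 of 3 libraries.

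Among neurons the widest gap was in the CPN of P7. Cluster 9 (876 cells) had 2.98% and 3.10% in libraries 1 and 2, while cluster 5 (1331 cells) had 6.17% and 5.95%, the highest mean. Of the remaining 4 clusters, all lay between them in library 1, while 2 lay just above cluster 5 in library 2, at 5.99% and 5.98%. Cluster 9 was the deeper of the pair, with 9053 UMIs per cell against 6129, and held 274 mitochondrial UMIs against 372. In the Sst interneurons of P7, cluster 2 had 5.96% ± 0.0727 (SD, n = 2) and cluster 6 had 4.34% ± 0.0675 (SD, n = 2) at like depths of 5992 and 5900 UMIs. OPC at P1 had 3.85% ± 0.225 (SD, n = 3) in cluster 9 and 2.86% ± 0.123 (SD, n = 3) in cluster 12, and 3 of 3 libraries showed this order. Astrocytes at P7 had 5.24% ± 0.203 (SD, n = 2) in cluster 16 and 4.47% ± 0.0572 (SD, n = 2) in cluster 10. At P21 astrocyte cluster 12 reached 20 cells in library 8 alone, where it had 6.55% against 7.77% in cluster 6. By contrast the MGE clusters of P7, at 6.47% and 6.36%, and the SCPN clusters of P1, at 4.32% and 4.24%, changed their order between libraries. No test was made between clusters, which were drawn from the same cells.

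Cells of 1 type and library varied well beyond counting error. The SD of the share over cells was 3.0 to 7.33 times that which the number of UMIs per cell alone would give. In sums of squares over all cells, the library, and with it the age, took 14.8%, the type within the library 16.5%, the cluster within the type 5.84% and the cells within a cluster 62.9%, and counting error alone accounted for 4.12%. Taken by age, the type took 9.75% at P1, 11.3% at P7 and 41.7% at P21. The types present and their numbers of cells differed by age, and these sums weigh each type by its cells. Microglia, the lowest type, were named at P21 alone, with 1893 of the 9916 cells. These values therefore do not compare the same types between ages. The library took 3.20% at P1, 0.216% at P7 and 0.0556% at P21.

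The limit of 10% bore on the types unequally. At P21, 41.3% of astrocytes had a share of 8% or more and 21.2% had 9% or more, against 6.01% and 1.95% at P7 and 0.948% and 0.316% at P1. Of the P21 astrocytes, 126 lay from 8% to 9% and 133 from 9% to 10%. Cells past the limit are not in the table, so the P21 astrocyte median is a value for cells below it, and their number was not known here. Among cells under 8%, the P21 to P1 difference of astrocytes was 3.21 points in place of 4.15. The test of astrocytes over the 3 ages passed as before (adjusted p = 0.00536, exact permutation test). The MGE interneurons of P7 were the next nearest to the limit, with 21.04% of cells at 8% or more. At the other end, 63.5% of microglia had a share under 2%, compared with 0.478% of P21 astrocytes.

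**Figure D4:**
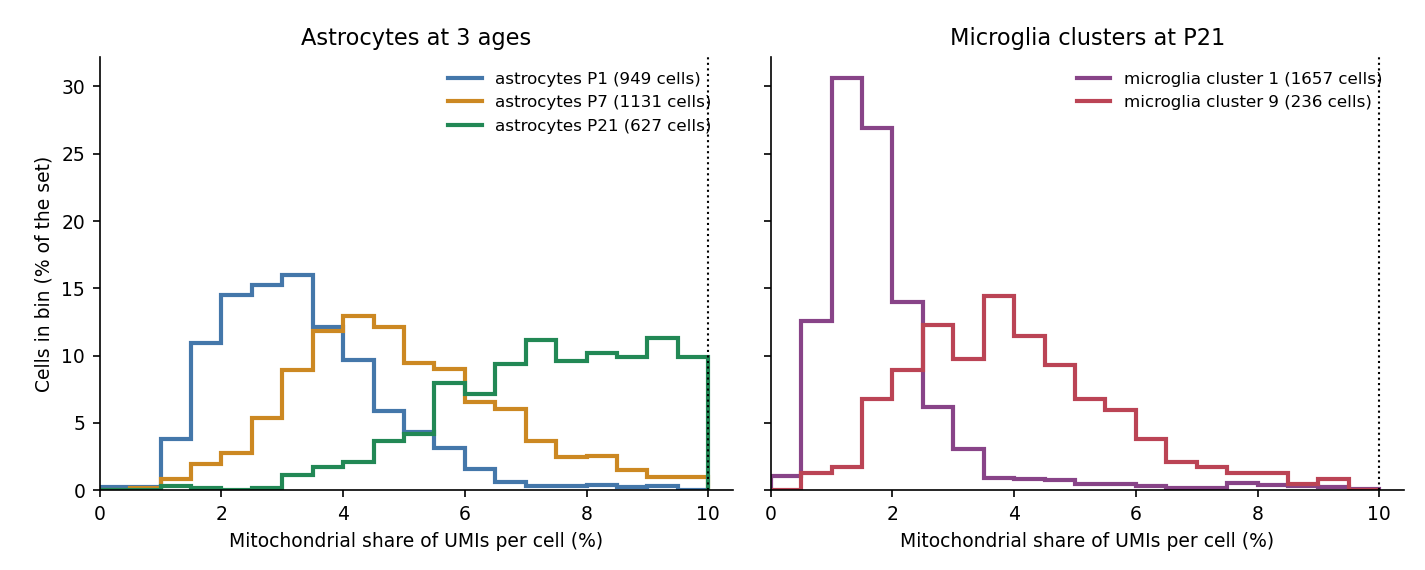
Percent of cells (y axis) in bins of 0.5 points of the mitochondrial share (x axis) for astrocytes at 3 ages (left) and the microglia clusters of P21 (right), over all libraries, with the limit of 10% dotted. P21 astrocytes hold 11.3% of their cells from 9% to 9.5% and 9.89% in the last bin below the limit, and microglia cluster 9 lies to the right of cluster 1.

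Within types the share was also set against the UMIs and genes of the cell, in 72 sets of at least 50 cells of 1 type and 1 library. Spearman's rank correlation with UMIs was negative in 50 sets and positive in 22, with a median of -0.14 and a range from -0.76 to 0.25. With genes it was negative in 53 and positive in 19, with a median of -0.15. Given the UMIs, the partial correlation with genes was negative in 41 and positive in 31, with a median of -0.03. These are descriptions over cells of 1 library each. The UMIs are the denominator of the share and include the mitochondrial ones. Against the UMIs of other genes the correlation was negative in 57 sets and positive in 15, with a median of -0.18. The UMIs of other genes are part of the denominator too, so neither correlation is free of the way the share is built. OPC were negative in 8 of 8 sets, CPN in 7 of 7 and COP, SCPN and Sst interneurons in 5 of 5 each. The lowest value, -0.76, was that of the CPN of P21 in library 6, followed by -0.67 in the MFOL of library 8 and -0.55 in the CPN of library 8. In library 6 the lowest tertile of these CPN by UMIs had a median share of 6.72% and the highest tertile 2.89%, a gap of -3.83 points, against -0.27 and -0.36 points in the P7 libraries.

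A minority of types leaned the other way. The rank correlation with UMIs was positive in 3 of 3 sets of microglia (0.04 to 0.17) and of pericytes (0.15 to 0.25), in 5 of 5 of CGE interneurons (0.01 to 0.19) and in 2 of 2 of Vip interneurons (0.14 and 0.21). Against the UMIs of other genes it stayed positive in all sets of pericytes and Vip interneurons, but in 2 of 3 sets of microglia and 3 of 5 of CGE interneurons. Given the UMIs, the partial correlation with genes was -0.42 to -0.36 in pericytes and 0.20 to 0.28 in microglia. Layer IV neurons were negative in the 3 sets of P1 (-0.45 to -0.22) and positive in both of P7 (0.15 and 0.21). Astrocytes were positive in 3 of 3 sets at P1 (0.02 to 0.14, and in 2 of 3 against other UMIs) and negative in the 2 of P21 (-0.18 and -0.10), where the highest tertile by UMIs less the lowest gave -0.88 and -1.10 points. In cells with 2000 to 4000 UMIs the P21 to P1 difference of astrocytes was 4.23 points, as large as over all depths. The P7 to P1 difference of OPC was 0.96 points. Their P1 libraries had 3.57%, 3.86% and 3.49% at this depth and their P21 libraries 4.07%, 4.24% and 3.84%. OPC of P21 and P1 therefore overlapped here, unlike over all depths. In these cells the exact permutation test over the 3 ages gave an adjusted p of 0.00714 for astrocytes and 0.0107 for OPC.

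**Figure D5:**
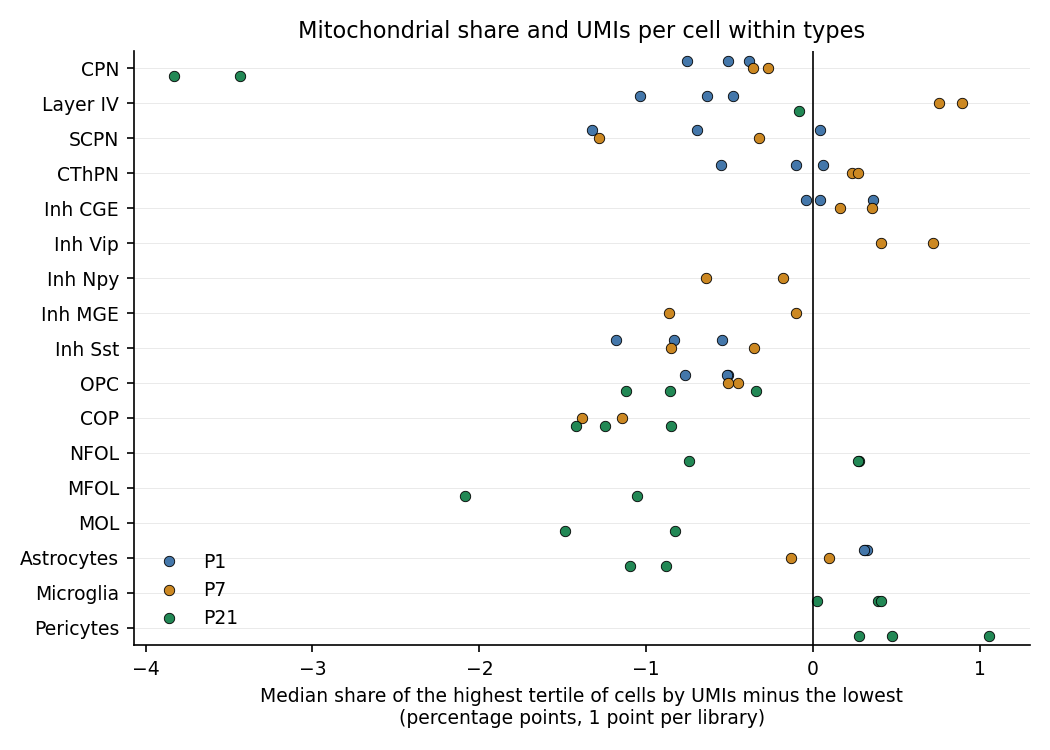
Difference in median mitochondrial share, in percentage points (x axis), between the highest and the lowest tertile of cells by UMIs within each type (y axis), with 1 point per library of at least 50 cells, coloured by age. CPN of P21 lie at -3.83 and -3.43 points, while pericytes and microglia lie at or above 0.02 points.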

How the data were processed

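Per the labels and the study's methods, libraries were made with the 10x Genomics Chromium 3' chemistry from live-sorted cells, and reads were aligned by the authors with Cell Ranger 3.0.1 to GRCm38 (mm10). The authors thinned the libraries to a like coverage per cell, kept cells of 1000 to 6000 genes whose UMIs did not exceed 15000 and whose mitochondrial share was under 10%, and removed outlier clusters. The labels' protocol also describes a sort of labelled neurons. Nothing in the sources used here says how doublets were handled, and none were called here. The deposited table gave counts of UMIs and numbers of genes per cell, with the mitochondrial share as a fraction, here multiplied by 100. Age, cluster and type were taken from the same deposited table. All columns were used.

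The library of a cell is the number after its barcode. The numbers could not be tied to samples and serve as names. Mitochondrial UMIs were the share times the UMIs, rounded to whole counts. The product lay within 0.001 of a whole count in 85.2% of cells. The value of a type in a library was the median over at least 20 cells. Ages were compared where at least 2 libraries per age had a value, by a two-sided exact permutation test of the sum of squares between ages (560 assignments for 3, 2 and 3 libraries, smallest p 0.00357). Pairs of types were compared by a two-sided exact sign-flip test over libraries (256 flips, smallest p 0.0078), with Benjamini-Hochberg adjustment in each family and a threshold of 0.05. Since libraries are pools, p-values measure the spread between these libraries. Relations within types used sets of at least 50 cells. All 17 types are named, and clusters where they had the highest or lowest share of their type and age. The members and lists were chosen with earlier results of these data known.

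Alternatives were the mean of cells, the share of summed UMIs, the logit or log2 of the median, minimums of 10 and 50 cells, shares under 8%, cells with 2000 to 4000 UMIs, cells with at least 1500 genes, the P7 libraries counted as 1, and leaving out each library in turn. The tests were tested on simulated data. The versions were 3.11.15 of Python, 2.4.6 of numpy, 2.3.3 of pandas, 1.17.1 of scipy and 3.10.9 of matplotlib.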

Additional observations from a re-analysis of the deposited data

Results flagged for a closer look

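The change with age in 3 differences between types stood out, each by an exact permutation test of the difference itself over the 3 ages. The adjusted p of that test was 0.0214 for astrocytes minus CPN and for astrocytes minus OPC, and 0.025 for OPC minus CPN. From P1 to P21, astrocytes minus CPN changed by 3.93 points and astrocytes minus OPC by 3.31 points. OPC minus CPN changed by 0.62 points, and its P1 and P21 libraries overlapped. The change from P1 to P21 alone was not tested, since 3 libraries against 3 cannot go below p = 0.1 in an exact permutation test. Astrocytes lay above CPN in 0 of 5 libraries of P1 and P7 and in 3 of 3 libraries of P21. Day of collection and papain concentration move with age in these libraries, and their part was not tested.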

How the results depend on the processing

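No tested result changed direction under the alternatives that gave a value. The call for astrocytes held in 16 of 16 alternatives and that for OPC in 17 of 17, and the equal-weight test passed in 16 of 16, with a P21 to P1 difference of 0.29 to 2.32 points as the types that entered changed. The number of types that differed by age was 2 to 4 of those tested under the other alternatives and 1 of 3 with at least 1500 genes, where astrocytes had too few cells. The number of tests passed on UMIs was 3 of 8 with log2 medians and 3 of 8 with the P7 libraries counted as 1, and ran from 0 to 4 with a library left out, 0 without library 1 of P7 and 3 without any of 2, 3, 5, 7 and 8. Calls for the differences between types are those of the test over the 3 ages, given here beside the change from P1 to P21. The call for OPC minus CPN was lost with the mean of cells (0.37 points), the summed share (0.70) and the logit (0.25 on that scale). It was also lost with shares under 8% (0.73 points) and the P7 libraries counted as 1 (0.62). With a library left out it was lost in 6 of 8 runs, and the change ran from 0.33 to 0.91 points. The call for astrocytes minus CPN was lost with the mean of cells (3.35 points), the summed share (3.52), the logit (1.19) and the P7 libraries counted as 1 (3.93). The change ran from 3.51 to 4.24 with a library left out. The call for astrocytes minus OPC was lost with the summed share (2.81 points) and the P7 libraries counted as 1 (3.31), and the change ran from 3.12 to 3.63. With a library left out, adjusted p reached 0.171 for the first and 0.0857 for the other two in the exact permutation test, and the calls for both differences of astrocytes were lost without library 1, 2 or 6. OPC minus CPN within libraries passed with at least 1500 genes (-0.58 points, p = 0.0391, exact sign-flip permutation test). It was the only pair left in that setting, so this p carries no adjustment, while the main result was adjusted over 3 pairs. The cause was not tested for any of these. With a minimum of 50 cells no pair of types was left in all libraries, and with 2000 to 4000 UMIs CPN was left out of the pairs and of the equal weight. No paired analysis was possible because the labels number the P7 libraries alone, and the library numbers of the cell table name no sample. The number of libraries limits what could pass, and P21 neuron types had 23 to 178 cells in the libraries that held at least 20.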

Other observations

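The 49 cells left without a type by the authors, all of P21, had a median mitochondrial share of 2.05%, with medians of 2.14%, 1.88% and 2.07% in the 12, 17 and 20 cells of libraries 6, 7 and 8. Among the named types of these libraries, microglia alone had lower medians. Single undetermined cells ranged from 0.699% to 9.74%, and their median of 3148 UMIs per cell lay above that of microglia (2274 ± 19.9, SD, n = 3).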
